A study of Mus musculus with 4 samples.

Results

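The genes described here are 10 genes of major histocompatibility complex (MHC) class I antigen presentation in mouse, taken by symbol from a gene count table of 39056 genes. They are the class I heavy chain genes H2-K1, H2-D1 and H2-T23, the light chain gene B2m, the peptide transporter genes Tap1 and Tap2, the loading chaperone gene Tapbp, the immunoproteasome genes Psmb8 and Psmb9, and Nlrc5, which encodes the transactivator of this group. All 10 were found in the table, and each had reads in all 4 libraries. The libraries hold polyadenylated RNA from lungs of S1PR1-GFP reporter mice, 1 library for each of 4 labels: mice without lipopolysaccharide (LPS, a component of the outer membrane of Gram-negative bacteria), and mice at 8, 16 and 20 h of LPS given into the peritoneum at 10 mg/kg. The labels name the sorted cells as endothelial cells that express the sphingosine-1-phosphate receptor S1PR1, taken as GFP+CD31+CD45-; strain, sex, age and the number of animals behind a library were not given in the sources used here. With 1 library per label no difference had a replicate check, so every direction below is between libraries with those labels.

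Class I molecules carry short peptides from inside the cell to its surface, where CD8 T cells and natural killer cells read them. The proteasome cuts the peptides, the TAP transporter moves them into the endoplasmic reticulum, and tapasin holds an empty heavy chain with its light chain, beta-2 microglobulin, next to the transporter until a peptide fits. Interferons raise most genes of the group, through IRF1 and NLRC5 among others, and endothelial cells are known to carry class I at rest.

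The libraries were even in depth, with 27566454 to 28905776 reads, and 11803 genes reached 1 CPM (the usual depth-scaled count, here on library totals scaled with edgeR's TMM factors) in at least 1 library; these are called measured. Intervals are 95% counting intervals from single libraries, and they leave out the variation between animals. A gene was called higher or lower in a pair of libraries where the scaled fold was 2 or more, the interval of the fold left out 1, and the higher level was 1 CPM or more. The labelled cell type was not borne out by its defining transcripts: Pecam1, which encodes CD31, had 7 reads without LPS and 2, 2 and 1 reads at 8, 16 and 20 h, Cdh5 had 5 to 9, and Erg, Emcn, Cldn5 and Sox17 had 0 in all 4. Among 16 endothelial marker genes, 3 reached 1 CPM in each library (Egfl7, Ramp2 and Ets1), and the list summed to 146, 235, 228 and 149 CPM, most of it Ets1. Ptprc, which encodes CD45, had 31 to 42 reads and the epithelial gene Epcam 1 to 3, while the intermediate filament gene Vim stood at 2358 to 2871 CPM. In bulk RNA, fewer cells of a type and less RNA per cell cannot be told apart.

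Of the 10 genes, 8 were measured, and these 8 were above 1 CPM in every library. Psmb8 and Psmb9 stayed under it. Scaled to exon length, the levels differed widely. B2m came first, with 319 to 364 CPM per kilobase of exon over the 4 libraries, and stood at or above percentile 99.5 of the measured genes. H2-D1 followed at 86.8 to 96.5 CPM per kilobase (percentiles 96.9 to 97.4). Tap2 at 7.59 to 7.93 and H2-K1 at 3.91 to 12.2 CPM per kilobase overlapped, as did H2-K1 with Tapbp (3.52 to 4.00), Tapbp with Nlrc5 (2.08 to 3.82), and Nlrc5 with Tap1 (1.95 to 3.11). H2-T23 lay below them, at 0.588 to 1.19 CPM per kilobase. Psmb8 (0.107 to 0.165) and Psmb9 (0.0888 to 0.174) came last and overlapped each other. With the transcript that has the longest coding sequence as the length, B2m and H2-D1 stayed at the top and H2-T23, Psmb8 and Psmb9 at the bottom, while H2-K1 passed Tap2 and Tap1 passed Nlrc5 within overlapping ranges.

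**Figure D1:**
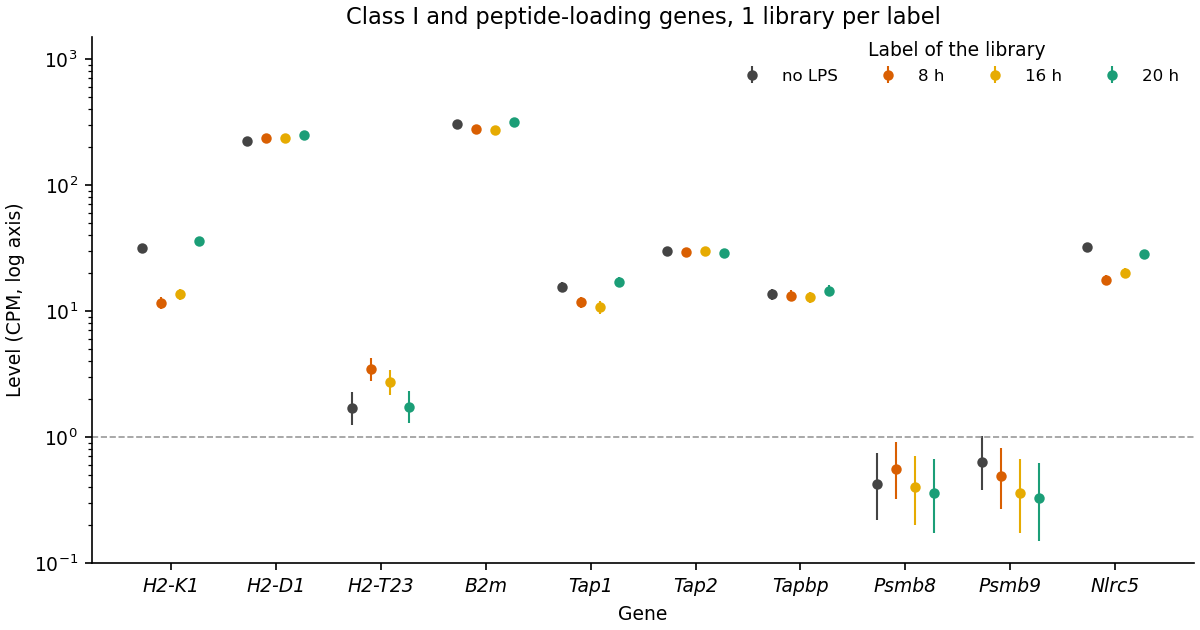
Level of each of the 10 genes in CPM (log axis) in the 4 libraries, with 95% counting intervals; the dashed line marks 1 CPM. H2-K1, Tap1 and Nlrc5 lie lower at 8 and 16 h than without LPS and at 20 h, as does B2m by less. H2-T23 lies higher, with a 16 h interval that overlaps the others, and Psmb8 and Psmb9 stay below the line.

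The classical heavy chain genes H2-K1 and H2-D1 encode the class I chains that present peptides to CD8 T cells. Stretches of their promoters are shown because one of the genes differed widely between the libraries and the other did not. A link between these sequences and the levels was not tested. In each promoter a match to the kappa B-like motif GGGNNTTCC (capitals) lies in nearly the same surroundings, 111 bases before the upstream one of 2 RefSeq starts of H2-K1 (chr17:34000439-34000468, minus strand) and 171 bases before that of H2-D1 (chr17:35262913-35262942, plus strand). The 30 bases differ at 1 position. In GENCODE M21 both H2-D1 stretches shown here, and that of H2-T23 further on, overlap an annotated exon, because the annotated gene begins upstream of the RefSeq start; those of H2-K1 and B2m do not.
H2-K1: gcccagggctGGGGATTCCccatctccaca
H2-D1: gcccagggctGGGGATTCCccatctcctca
Nearer to the start, both hold TGACGC (capitals), a core of the X2-like site at which class I promoters bind factors of the CREB family (chr17:34000371-34000400, minus strand, and chr17:35262981-35263010, plus strand). These stretches differ at 6 of 30 positions.
H2-K1: tccggacactgtTGACGCgcagtcagctct
H2-D1: ccgggacactgaTGACGCgctggcaggtct
All sequences run 5′ to 3′ on the strand of the gene and come from RefSeq on GRCm38.p6, the assembly behind mm10; 8 of the 10 genes matched a promoter window, and Tap2 and Nlrc5 did not.

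H2-K1 (chromosome 17, 33996017 to 34000347, minus strand; mm10) had 891 reads without LPS and 330, 376 and 991 reads at 8, 16 and 20 h, which are 31.5, 11.5, 13.6 and 35.8 CPM. The 8 and 16 h libraries were low and the other two high, with no overlap of their counting intervals. H2-K1 was called lower at 8 h, by 2.74-fold (2.41 to 3.12), and at 16 h, by 2.32-fold (2.06 to 2.63). It was not called at 20 h, at 1.14-fold of the level without LPS (1.04 to 1.24), and between 16 and 20 h it was called higher, at 2.64-fold (2.34 to 2.98). Its log2 ratio of -1.45 at 8 h stood at percentile 2.04 of the measured genes, and its -1.21 at 16 h at percentile 2.95.

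H2-D1 (chromosome 17, 35262730 to 35267499, plus strand) had 6330, 6756, 6530 and 6892 reads in the same order, at 224, 235, 236 and 249 CPM. The highest library was 1.11 times the lowest, and no pair was called. H2-D1 thus held most reads of the classical chains. H2-K1 made up 12.3% of the reads of both genes without LPS (exact binomial interval 11.6 to 13.1), 4.66% at 8 h (4.18 to 5.17), 5.44% at 16 h (4.92 to 6.01) and 12.6% at 20 h (11.8 to 13.3). Summed with the 8 H2-Q genes of the table, the classical chains stood at 256, 248, 250 and 286 CPM. The log2 ratio to no LPS was then -0.05 at 8 h and -0.04 at 16 h, where H2-K1 alone had -1.45 and -1.21.

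**Figure D2:**
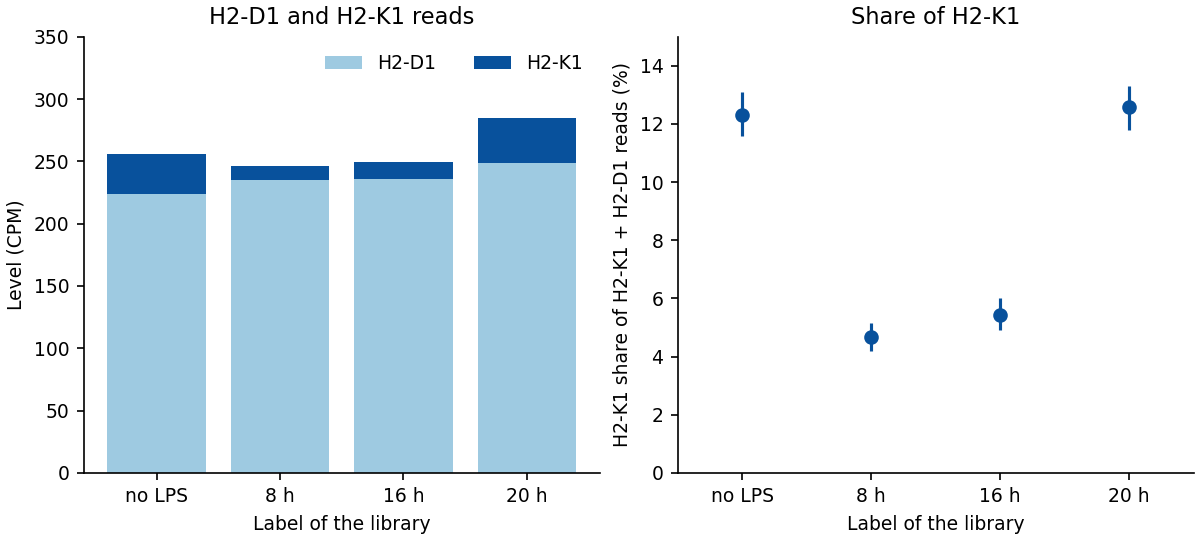
Left, levels of H2-D1 and H2-K1 in CPM, stacked, in the 4 libraries; right, the share of H2-K1 in the reads of both genes, in percent, with exact 95% binomial intervals. The summed bars lie between 247 and 285 CPM, while the share of H2-K1 is 4.66% and 5.44% at 8 and 16 h and 12.3% and 12.6% in the other libraries.

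Class I genes have near-identical copies and are highly polymorphic between strains. Of the 50-base words in H2-K1 transcripts, 9.63% also occur in transcripts of other genes, among them H2-D1, and of those in H2-D1 transcripts 12.8%; with 100-base words the shares are 0.957% and 3.59%. For H2-T23 they are 14.5% and 3.15%. Read length, the treatment of reads that match several genes and the strain were not given in the sources used here, and the part of these in the heavy chain values was not tested.

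H2-T23 (chromosome 17, 36029773 to 36032855, minus strand) encodes Qa-1, a chain with little variation that shows leader peptides of other class I chains to natural killer cells. It had 48 reads without LPS and 99, 75 and 48 reads at 8, 16 and 20 h, or 1.70, 3.45, 2.71 and 1.73 CPM. The 8 h library was highest, and its interval (2.80 to 4.2 CPM) lay above those without LPS (1.25 to 2.25) and at 20 h (1.28 to 2.30), while the 16 h interval overlapped the others. H2-T23 was called higher at 8 h, at 2.03-fold, with an interval of 1.42 to 2.93 that holds the threshold itself. At 16 h it was not called, at 1.59-fold (1.09 to 2.34). A minimum of 10 CPM in the higher library ends the call at 8 h.

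B2m (chromosome 2, 122147686 to 122153083, plus strand), whose product every class I chain needs at the surface, had 8609, 7924, 7601 and 8661 reads without LPS and at 8, 16 and 20 h. Its levels of 305, 276, 274 and 313 CPM were slightly lower at 8 and 16 h, by 1.10-fold (1.07 to 1.14) and 1.11-fold (1.08 to 1.15), and no pair was called. None of its 50-base words occurs in another gene. B2m and H2-T23 were the only genes among the 8 whose windows hold the core of the interferon-stimulated response element, 2 copies of GAAA set 2 bases apart (capitals), at chr2:122147538-122147567 (plus strand) and chr17:36032806-36032835 (minus strand), in H2-T23 as its reverse complement; they are shown since these genes differed in behaviour, with B2m nearly level and H2-T23 higher at 8 h.
B2m: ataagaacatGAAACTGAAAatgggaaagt
H2-T23: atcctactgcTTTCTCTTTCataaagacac
In promoter windows of 300 bases, searched on both strands, 3.44% of all 32851 windows hold the interferon-stimulated response element core, 5.82% hold GGGNNTTCC, 7.40% hold TGACGC, 8.30% hold TTCNNNGAA (the gamma-activated site) and 37.4% hold CCAAT. Among the 8 genes with windows, that core, GGGNNTTCC and TGACGC were each in 2, TTCNNNGAA in 1 (Psmb8) and CCAAT in 7. The 7 include Tap1 and Psmb9, whose CCAAT match is the same site. These matches are letters only, and a link between any match and the levels was not tested. The printed matches do not overlap each other.

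The transporter genes Tap1 and Tap2 encode the chains that together form TAP. Tap1 (chromosome 17, 34187553 to 34197225, plus strand) had 437 reads without LPS and 335, 296 and 472 reads at 8, 16 and 20 h, at 15.5, 11.7, 10.7 and 17 CPM. Like H2-K1 it was low at 8 and 16 h, but by less: 1.33-fold (1.15 to 1.53) and 1.45-fold (1.25 to 1.68), neither called. From 16 to 20 h Tap1 was 1.60-fold higher (1.38 to 1.85), also not called. Tap2 (chromosome 17, 34203527 to 34216321, plus strand) was level, with 839, 842, 831 and 795 reads at 29.7, 29.3, 30 and 28.7 CPM, and all 4 intervals overlapped. Per kilobase of exon, Tap2 stood at 2.78 times Tap1 without LPS, 3.64 times at 8 h, 4.07 times at 16 h and 2.44 times at 20 h. Tapbp (chromosome 17, 33915899 to 33929292, plus strand), which encodes tapasin, had 383, 378, 354 and 402 reads at 13.6, 13.2, 12.8 and 14.5 CPM, with overlapping intervals and no call.

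Psmb8 and Psmb9 encode the catalytic subunits LMP7 and LMP2, which replace constitutive subunits of the proteasome where interferon acts and in immune cells. Both were close to absent. Psmb8 (chromosome 17, 34197721 to 34201454, plus strand) had 12 reads without LPS and 16, 11 and 10 reads at 8, 16 and 20 h, and Psmb9 (chromosome 17, 34181987 to 34187764, minus strand) had 18, 14, 10 and 9. The highest level was 0.557 CPM for Psmb8 and 0.637 CPM for Psmb9, where the limit of 3 reads that is set for a count of 0 lies at 0.104 to 0.108 CPM. The intervals of all 4 libraries overlapped for each gene. So few reads leave wide intervals: the fold of Psmb8 at 8 h had an interval of 0.583 to 3.04, and that of Psmb9 at 20 h one of 0.202 to 1.20.

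The constitutive counterparts were well expressed in the same libraries. Psmb5, replaced by Psmb8, had 1263 to 1324 reads, and Psmb8 made up 0.786% to 1.19% of the reads of this pair. Psmb6, replaced by Psmb9, had 4144 to 4584 reads, and Psmb9 made up 0.217% to 0.391%. Per kilobase of exon, Psmb5 stood at 311 to 475 times Psmb8 and Psmb6 at 498 to 900 times Psmb9. With the transcript of the longest coding sequence as length, these became 176 to 268 times and 760 to 1375 times. The inducible subunit of the remaining pair differed from both: Psmb10, which encodes MECL-1, had 432, 506, 454 and 407 reads, 8.61% to 9.89% of the reads of Psmb10 and Psmb7, and its counterpart Psmb7 stood at 4.54 to 5.29 times its level per kilobase.

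**Figure D3:**
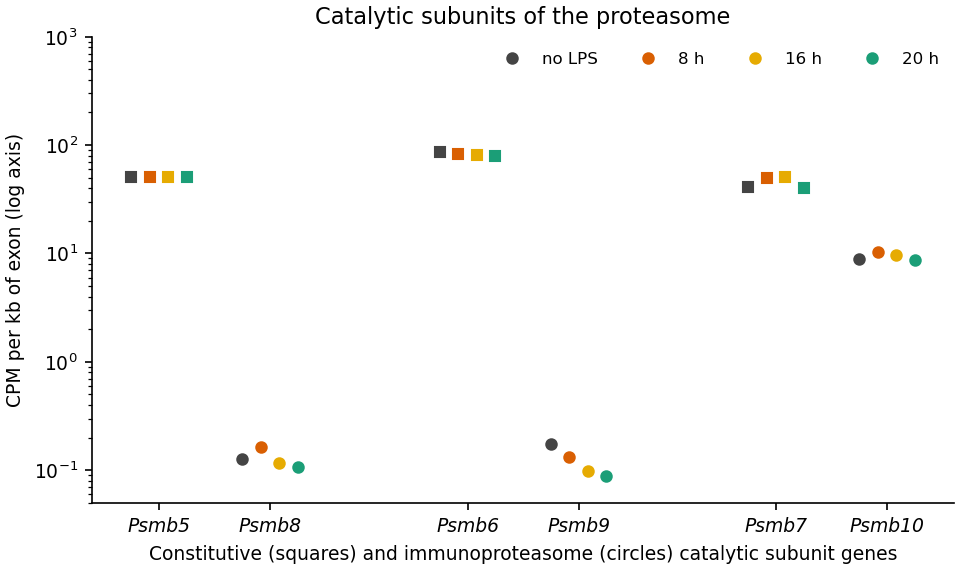
Levels of the catalytic subunit genes of the constitutive proteasome (squares) and the immunoproteasome (circles) in CPM per kilobase of exon (log axis), 1 point per library. Psmb8 and Psmb9 lie at 0.0888 to 0.174, 311 to 900 times below Psmb5 and Psmb6, and Psmb10 lies at 8.62 to 10.3.

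Psmb9, Tap1, Psmb8 and Tap2 are direct neighbours in the class II region of the locus. Psmb8 starts 495 bases after the end of Tap1, and Tap2 2072 bases after the end of Psmb8. Tap1 and Psmb9 are transcribed away from each other from RefSeq starts with 225 bases between them. Their promoter windows have 275 bases in common, and the CCAAT match of both genes is the same site there. Tap1 had 24.3 times the reads of Psmb9 without LPS, and 23.9, 29.6 and 52.4 times at 8, 16 and 20 h. Per kilobase of exon, these became 16.2, 16.0, 19.8 and 35.1 times. The ratios rest on few Psmb9 reads, 18 without LPS and 9 at 20 h. Psmb9 made up 3.96% of the reads of both genes without LPS (2.36 to 6.18) and 1.87% at 20 h (0.859 to 3.52), with overlapping intervals. Their annotated exons share 212 bases on opposite strands, and reads there cannot be assigned without strand information. Exons of Tap2 share 533 bases with Gm15821, those of Psmb8 498 with Gm20496, those of Tapbp 904 with Gm19412 and those of Nlrc5 78 with 9330175E14Rik, all on the opposite strand. Tapbp also shares 149 exon bases with Zbtb22 on its own strand.

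Nlrc5 (chromosome 8, 94434356 to 94527272, plus strand) had 917 reads without LPS and 506, 558 and 787 reads at 8, 16 and 20 h, at 32.4, 17.6, 20.1 and 28.4 CPM. The 8 and 16 h libraries were low, with intervals below the others. At 8 h Nlrc5 was 1.84-fold lower (1.65 to 2.06), at 16 h 1.61-fold (1.45 to 1.79) and at 20 h 1.14-fold (1.04 to 1.26), so that no pair was called. Its log2 ratios of -0.88 and -0.69 stood at percentiles 5.24 and 7.74 of the measured genes. With a threshold of 1.5-fold, Nlrc5 would be called lower at 8 and 16 h.

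As a group, 2 of the 8 measured genes were called at 8 h, 1 higher (H2-T23) and 1 lower (H2-K1), while 4.19% of all measured genes were called higher and 4.13% lower, 8.31% in all. At 16 h none was called higher and 1 lower (H2-K1), against 4.13% and 4.09% of all measured genes, 8.23% in all. At 20 h against no LPS none was called in either direction, against 0.551% of measured genes called higher and 0.102% lower, 0.652% in all. Between 8 and 16 h none was called, against 0.161% called higher and 0.0763% lower, 0.237% in all. From 16 to 20 h 1 was called higher, H2-K1, and none lower, against 4.63% and 3.85%, 8.47% in all. The median log2 ratio of the 8 genes was -0.09 at 8 h, -0.12 at 16 h and 0.07 at 20 h, and that of all measured genes 0.00, 0.01 and -0.00. The 3 comparisons with no LPS share that library. The calls at 8 h thus went in both directions, and the other 6 measured genes, B2m, H2-D1, Tap1, Tap2, Tapbp and Nlrc5, were not called in any pair.

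**Figure D4:**
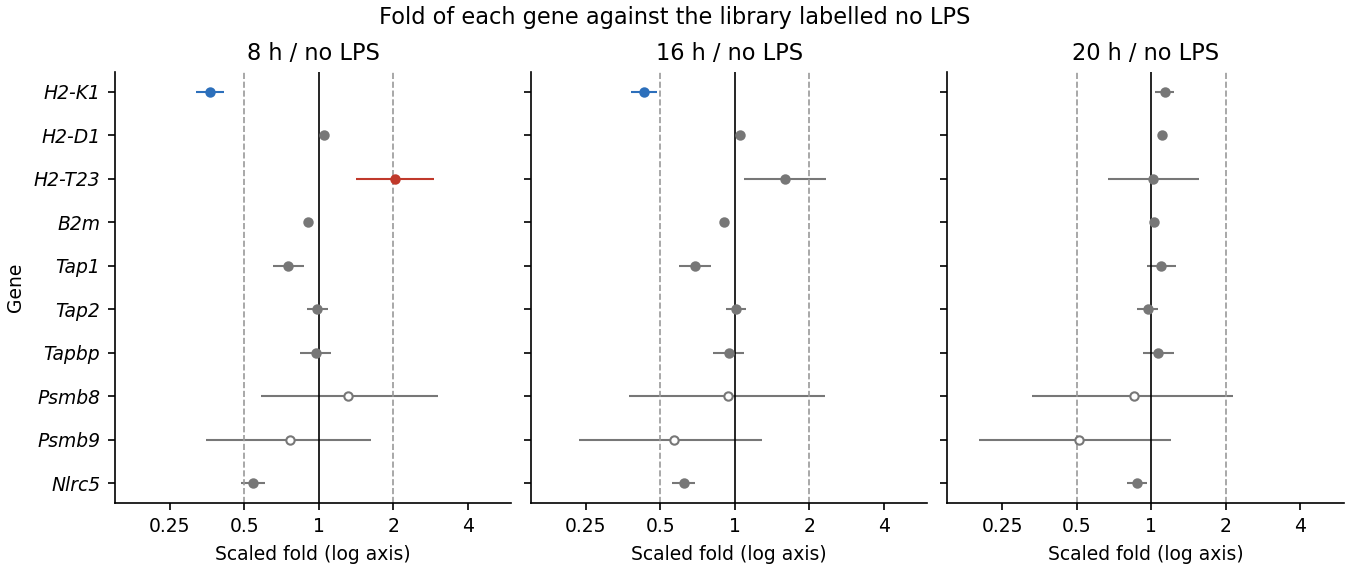
Scaled fold of each of the 10 genes against no LPS (log axis) with 95% counting intervals, at 8, 16 and 20 h; blue marks a gene called lower, red one called higher, grey one not called, and open circles the genes below 1 CPM. Dashed lines mark 2-fold in each direction. H2-K1 lies beyond the line at 8 and 16 h and H2-T23 at 8 h (2.03-fold), and at 20 h no gene does.

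Most other heavy chain genes of the class I family were not measured. Of 24 listed, 20 were in the table and 6 were measured. At 8 h 1 of the 6 was called higher, none lower, against 4.19% and 4.13% of all measured genes. Their median log2 ratio was 0.26. The called gene was Mr1, whose product shows vitamin B metabolites to MAIT cells: 195, 446, 432 and 192 reads without LPS and at 8, 16 and 20 h, 6.90, 15.5, 15.6 and 6.93 CPM. It was 2.25-fold higher at 8 h (1.90 to 2.68) and 2.26-fold at 16 h (1.90 to 2.69), and 2.25-fold lower from 16 to 20 h. Mr1 was thus high at 8 and 16 h, where H2-K1 was low. Of the 6, 4 had log2 ratios above 0 at 8 h. Fcgrt was low at 8 and 16 h like H2-K1, at 8.77, 5.54, 5.59 and 8.85 CPM. Hfe was near level, at 7.57, 7.07, 8.19 and 8.09 CPM, and neither was called. The H2-Q genes had at most 19 reads in a library (H2-Q4). For the lists below too, the shares of all measured genes called are those given above for each pair.

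The remaining genes of peptide loading and trimming gave no call: 0 of 12 in each of the 5 pairs, with medians of -0.13, -0.14 and -0.02 at 8, 16 and 20 h against no LPS. The chaperone genes Calr and Pdia3, whose products sit with tapasin at the transporter, stood at 3395 to 3698 and 1755 to 1980 CPM. Tapbpl, which encodes the editor TAPBPR, was at 2.76, 2.40, 2.24 and 4.15 CPM and was 1.5-fold higher at 20 h (1.12 to 2.03), not called. Erap1, which trims peptides in the endoplasmic reticulum, was at 21.5, 15, 15.4 and 20.4 CPM, 1.43-fold lower at 8 h (1.26 to 1.62) and not called. Of 14 genes of the constitutive 20S core and 6 partners and activators of the immunoproteasome, none was called in any pair; the medians at 8 h were 0.11 and 0.10. Psme1 and Psme2, the subunits of the interferon-inducible activator PA28, were at 38.6, 33.3, 34.3 and 44.3 CPM and at 12.6, 9.02, 10.3 and 11.5 CPM.

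Regulators of class I transcription had 17 of 18 genes measured, of which 1 was called lower at 8 h, 1 at 16 h and none at 20 h, with medians of -0.03, 0.01 and 0.01. The called gene was Irf9, part of the complex that carries the type I interferon signal, at 13.6, 6.30, 6.57 and 12.3 CPM; it was 2.15-fold lower at 8 h (1.80 to 2.58) and 2.06-fold at 16 h (1.72 to 2.47). Its partner in that complex, Stat2, was at 24.5, 13.8, 14.7 and 26.8 CPM, 1.77-fold lower at 8 h (1.57 to 2.01) and not called. Irf1 was at 9.20, 8.43, 9.13 and 8.96 CPM, with overlapping intervals throughout. Rfx5, which encodes a subunit of the complex at the X box with which NLRC5 acts, was at 45.3, 33.3, 31.6 and 48.5 CPM, 1.36-fold lower at 8 h (1.25 to 1.48) and 1.43-fold at 16 h (1.31 to 1.56), not called. Ezh2 went the other way, at 98.1, 149, 149 and 104 CPM, as did Ctcf, at 78.6, 112, 106 and 81.8 CPM. Neither was called. Of the 17 measured regulators, 7 had log2 ratios above 0 at 8 h and 9 at 16 h. Stat2, Ezh2, Ctcf, Calr and Pdia3 were named after their values were seen.

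The interferon genes listed were not detected, and others were not looked up. Ifnb1, Ifng, Ifna2, Ifna4, Ifnl2 and Ifnl3 had 0 reads in all 4 libraries, where the limit of 3 reads for a count of 0 is at most 0.108 CPM. The lambda interferon receptor gene Ifnlr1 also had 0 reads. In that list of 15 the 8 measured genes were Ifnar1, Ifnar2, Ifngr1, Ifngr2, Jak1, Jak2, Tyk2 and Socs1, of which none was called at 8 or 16 h and 1 at 20 h. That gene was Socs1, which encodes an inhibitor of interferon signalling, at 2.87, 3, 3.57 and 6.75 CPM, 2.36-fold higher at 20 h (1.81 to 3.10). Of 40 interferon-induced genes 11 were measured, where 11803 of all 39056 genes in the table were. At 8 h 3 were called higher, Ddx58 at 3.12-fold (2.62 to 3.73), Ifit2 at 2.64-fold (2.29 to 3.05) and Sp100 at 2.32-fold (1.28 to 4.36), and 1 lower, Irgm2 at 2.74-fold (1.78 to 4.32). At 16 h Ddx58 and Ifit2 were called higher and Irgm2 lower, and at 20 h none was called. Of all measured genes, 4.19% were called higher and 4.13% lower at 8 h, and 4.13% and 4.09% at 16 h. From 16 to 20 h Ddx58 and Ifit2 were called lower and Irgm2 higher. The medians of this list were 0.07, 0.07 and -0.04. Cd274, which encodes PD-L1 and was named after its values were seen, was at 26.5, 15.3, 15.5 and 24.8 CPM, 1.73-fold lower at 8 h (1.54 to 1.95), not called.

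**Figure D5:**
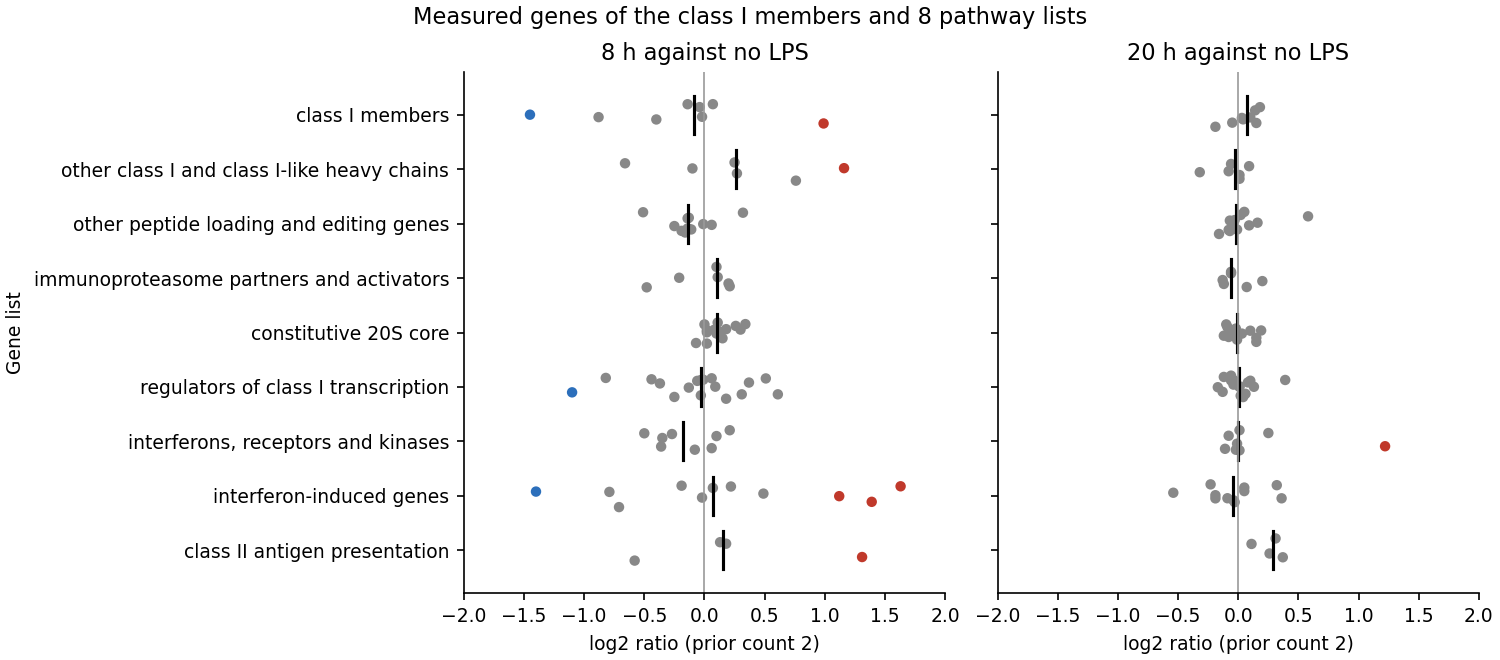
Log2 ratio to no LPS (prior count 2) of each measured gene in the class I members and the 8 pathway lists, at 8 h (left) and 20 h (right); black bars are list medians, red and blue points genes called higher and lower. At 8 h the list medians lie between -0.17 and 0.26, with called genes in both directions, and at 20 h 1 gene is called, Socs1.

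Markers of other cells also differed between the libraries in which H2-K1 was low and the rest, and their part in the results was not tested. In the list of 16 macrophage and dendritic cell genes, 6, 7, 9 and 7 reached 1 CPM without LPS and at 8, 16 and 20 h, with summed levels of 160, 140, 137 and 165 CPM, most of it Cd68 (99.7, 66.5, 62.0 and 96.6 CPM). Adgre1 had 12, 31, 77 and 24 reads and was called higher at 8 and 16 h, Csf1r had 9, 15, 30 and 26 and was called higher at 16 h, and Xcr1 had 0 in all 4. The 8 neutrophil genes summed to 1.34, 0.348, 0.505 and 1.12 CPM, or 38, 10, 14 and 31 reads. S100a8 held 34, 6, 7 and 25 of these reads and was called lower at 8 and 16 h, while S100a9 had 0, 1, 0 and 0. Against no LPS the leukocyte gene Cd53 (14, 24, 24 and 34 reads) and the macrophage gene Ear2 (20, 21, 28 and 48 reads) were called higher at 20 h, and the endothelial gene Ramp2 (46, 89, 92 and 50 reads) at 16 h. Between 8 and 16 h Adgre1 and Csf1r were called higher, and from 16 to 20 h Adgre1, Krt8 and Krt18 were called lower and Dcn higher. The 12 leukocyte genes summed to 39.6, 41.2, 39.7 and 42.6 CPM and the 13 T, NK and B cell genes to at most 0.354 CPM. The 12 lung epithelial genes summed to 56.9, 128, 131 and 56.6 CPM. Most of it was Krt18 (38.1, 90.8, 92.8 and 37.7 CPM) and Krt8 (13.1, 32.6, 32.5 and 14.1 CPM), both called higher at 8 and 16 h. Of this list 3 genes were measured, and the third, Hopx (127, 106, 143 and 103 reads), was not called in any pair. The others stayed under 1 CPM, and Sftpb and Nkx2-1 had 0 reads. The 14 fibroblast and mural genes summed to 2781, 3086, 3207 and 2957 CPM, mainly Vim, with Col3a1 and Dcn called lower at 8 and 16 h.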

How the data were processed

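RNA was measured in 4 libraries, 1 per label, and each column of the deposited table was matched to its sample by title. The authors deposited raw counts of reads per gene, made with STAR and featureCounts on mm10, per the submitters' processing notes; versions, annotation, strand handling and multi-mapping reads were not given in the sources used here. Totals were 28060685, 28905776, 27843147 and 27566454 reads without LPS and at 8, 16 and 20 h. Symbols came from a table of Ensembl gene identifiers, which matched 38872 identifiers (99.5%), and coordinates and exon lengths from GENCODE M21.

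Counts were scaled with TMM factors (edgeR 4.0.16). Folds carry exact conditional binomial (Clopper-Pearson) 95% intervals, shares exact binomial and levels exact Poisson ones; all cover counting error only, since no molecular identifiers are recorded, and a count of 0 was set against a limit of 3 reads. Log2 ratios used a prior count of 2. No test between libraries was made, because each label has 1. The rule of size was checked on simulated counts with counting error alone. That check cannot show how the rule fares with variation between animals, or at levels as low as those of H2-T23. Lists are described by calls and medians. Alternatives were other scalings (DESeq2 1.42.0 size factors among them), minimum levels, fold thresholds, prior counts, a stricter interval, thinning, summed heavy chains and transcript length. Named genes were the 10 members, called genes of the lists and fixed partner genes, and Pecam1, Cdh5, Ptprc, Adgre1, Epcam and Vim as markers; any other gene was named with its values already known. The members, lists and rules were chosen with earlier results of these data known. The values of 1 partner gene that this rule names are not reported here.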

Additional observations from a re-analysis of the deposited data

How the results depend on the processing

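Scaling, thinning and prior count gave 300 recomputed log2 ratios of the 10 genes, all within the counting interval of the reported fold, and none changed sign where a call had been made. The minimums, fold thresholds and stricter interval change the call and not the ratio. Under library size, DESeq2 and upper quartile scaling, thinning, no minimum and the stricter interval, no call among them changed. The 10 calls that did change came from the 1.5-fold threshold (5), the 4-fold threshold (4) and the 10 CPM minimum (1). At 4-fold 0 members were called at 8 h, 16 h and from 16 to 20 h, where 2, 1 and 1 had been. At 1.5-fold 3 were called at 16 h (H2-T23 and Nlrc5 beside H2-K1) and 3 from 16 to 20 h (H2-T23 and Tap1 beside H2-K1). With 10 CPM 1 was called at 8 h, H2-K1. Summing H2-K1, H2-D1 and the H2-Q genes gave log2 ratios of -0.05, -0.04, 0.01 and 0.19 at 8 h, at 16 h, between them and from 16 to 20 h, in place of -1.45, -1.21, 0.24 and 1.39 for H2-K1.

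Counts over all genes moved with the rule. Where 981 genes were called at 8 h, the count was 1445 with no minimum, 332 with 10 CPM, 2343 at 1.5-fold and 187 at 4-fold. For 971 at 16 h the counts were 1484 with no minimum, 332, 2356 and 178. For 77 at 20 h they were 216 with no minimum, 22 with 10 CPM, 236, 9, and 40 with the stricter interval. For 28 between 8 and 16 h they were 172, 0, 92, 2 and 4 in the same order. For 1000 from 16 to 20 h they were 1496 with no minimum, 357 with 10 CPM, 2449 and 184. No paired analysis was possible because each label has 1 library. Depth limits Psmb8 and Psmb9 most.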

Other observations

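Class II genes were low beside the summed class I genes. Of 12 class II genes 4 were measured (H2-DMa, H2-DMb1, Cd74 and Ctss), and the whole list summed to 8.21, 9.37, 9.17 and 9.53 CPM without LPS and at 8, 16 and 20 h, against 654, 599, 601 and 689 CPM for the 10 class I genes. Over the whole table, 11803 of 39056 genes were measured. Most of the class I sum was B2m and H2-D1, at 305 and 224 CPM without LPS, while H2-T23, Psmb8 and Psmb9 were as low as class II genes. Ctss held 3.75 of the 8.21 CPM of class II without LPS. Ciita, which encodes the class II transactivator and is a relative of Nlrc5, had 0 reads in all 4 libraries, as did H2-Oa, H2-Ob and H2-Eb2. H2-DMa, which encodes a chain of the class II peptide editor, was at 0.743, 1.95, 1.62 and 0.939 CPM and was called higher at 8 h, at 2.63-fold (1.56 to 4.56), and at 16 h, at 2.19-fold (1.28 to 3.86). No explanation of these values was tested.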
